A study of Macaca fascicularis with 12 samples.

Results

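Potassium channel genes were followed in brain tissue of cynomolgus macaques injected with a baculovirus. The members are all probe sets whose annotated gene symbol begins with KCN, apart from those of KCNJ8, KCNJ10 and KCNJ13. They are 71 genes, of 14133 distinct symbols on the array, measured by 106 of its 52865 probe sets. A filter on low values, set on the mean of all 12 arrays, left 70 of these probe sets, from 54 genes. The 17 genes below it are KCNA10, KCND1, KCNE1, KCNE3, KCNG4, KCNH1, KCNH7, KCNJ14, KCNJ16, KCNK4, KCNK7, KCNK18, KCNMB3, KCNN4, KCNQ5, KCNS3 and KCNV2. KCNC2, KCNH4, KCNJ3, KCNJ11, KCNK6, KCNK9 and KCNV1, listed in a panel of genes by role, were not analysed here.

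Potassium channels let potassium leave the cell, which holds the resting membrane potential, ends action potentials and spaces out repeated firing. The family has voltage-gated pores, pores opened by calcium or sodium, inward rectifiers that carry current best near rest, and tandem-pore-domain leak channels. Regulatory subunits, which form no pore, set the gating and the surface level of the pores. In the striatum, inwardly rectifying and voltage-gated potassium currents hold the medium spiny projection neurons in a quiet state between bouts of firing. In the thalamus, relay neurons use leak, calcium-activated and fast voltage-gated potassium currents as they change between tonic and burst firing.

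The study used 3 adult male animals. The left hemisphere of each received BV-HSVtk, a baculovirus, at 4 intrastriatal sites, each with 10 µL holding 1e+08 particles. The right hemisphere, here called mock, received Sf9 insect cell medium without virus that had passed the same purification. On day 2, 2 pieces of about 100 mg were cut from each hemisphere, and RNA of each piece was hybridised to 1 array, which gave 6 BV and 6 mock arrays. Replicate numbers 1 and 2 were taken as the pieces of animal 1, 3 and 4 as those of animal 2, and 5 and 6 as those of animal 3. The sample titles give the treatment and replicate number and name no animal. The same number in BV and mock was taken to mark a pair from opposite hemispheres. Virus went into the left side in all 3 animals, so an effect of treatment and a difference of hemispheres cannot be told apart. Pieces are bulk tissue, in which fewer cells of a type and less RNA per cell cannot be told apart.

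The pieces differed in the brain region they held. Striatal projection neuron markers, 8 of 15 tested, had a mean log2 signal between 8.99 and 10.4 in BV 4, BV 6, mock 2, mock 4, mock 5 and mock 6, called striatum-rich here. In the other 6 arrays (BV 1, 2, 3 and 5, mock 1 and 3) it lay between 5.92 and 7.51. Thalamic markers, 7 of 12 tested, ran the other way, at 6.21 to 7.51 against 7.78 to 9.11. BV 5, with 6.93 for the striatal markers, was the lowest of its class for the thalamic ones at 7.78. None of the tested markers was listed at 0. These classes were drawn from genes on the same arrays and are not groups of the study, so differences between them are described without a test.

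The number of the piece also marks an array set, which the sample titles do not name and which shows in the deposited scale. Piece 1 arrays (odd numbers) had deposited medians between 50.2 and 62.8, and piece 2 arrays between 25.4 and 32.7. Trimmed means of the deposited values were 100.005 to 100.006 in piece 2 arrays and 142 to 189 in piece 1 arrays. Of the 6 striatum-rich arrays, 5 are piece 2 arrays. The only striatum-rich piece 1 array is mock 5, and the only other piece 2 array is BV 2. Each class difference was therefore also read within the sets, as mock 5 against the other 5 piece 1 arrays and as BV 2 against the other 5 piece 2 arrays. A probe set is said to follow the classes when that array lay outside the range of its set, in the same direction in both sets. Mock 6 had an actin 3′ to 5′ signal ratio, a sign of RNA quality, of 2.40, against 1.1 to 1.4 in the other arrays.

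**Figure D1:**
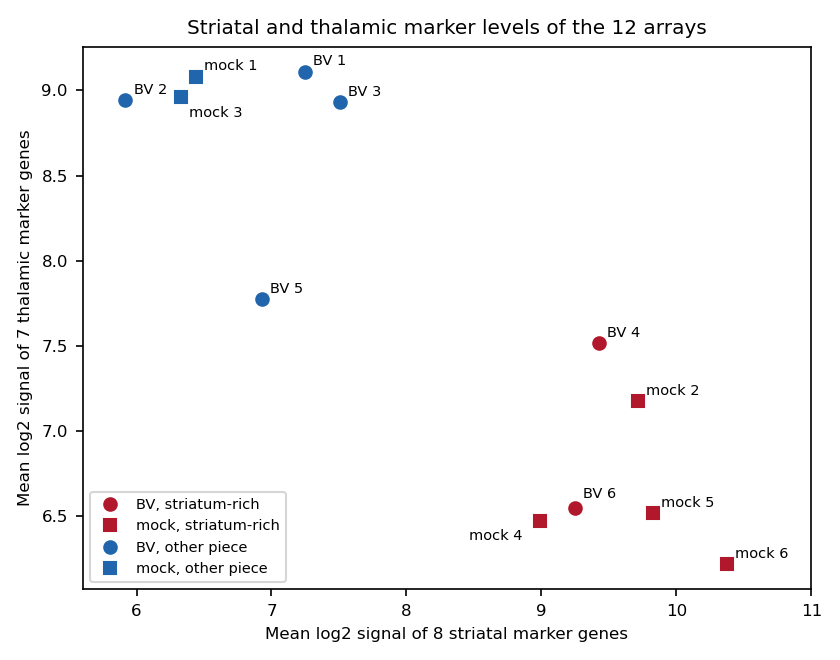
Mean log2 signal of thalamic markers (y axis) against that of striatal projection neuron markers (x axis) in each of the 12 arrays, marked by treatment (shape) and piece class (colour). The 6 striatum-rich arrays lie at 8.99 to 10.4 on the striatal axis, and BV 5 is the lowest of the other pieces on the thalamic axis (7.78).

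Potassium channel genes differed between striatum-rich and other pieces in both directions. KCNH3, KCNIP2, KCNAB1, KCNG3 and KCNN1 were higher in the striatum-rich pieces, and KCNH5, KCNK3, KCNMB2, KCNK5, KCNN2 and KCNA5 were lower, with no overlap between the classes. In all, 12 of 70 tested probe sets (17.1%) did not overlap, 6 higher and 6 lower, against 3.79% of all 31660 probe sets tested (2.49% higher and 1.3% lower). A probe set without overlap follows the classes within both array sets by construction, so this adds nothing for those 12. The looser reading held for 30 members (42.9%), 13 higher and 17 lower, against 14.9% of all (7.66% higher and 7.24% lower). Class medians were over 1 log2 unit apart for 19 members (27.1%), 8 higher and 11 lower, against 4.87% of all (2.55% higher and 2.33% lower). KCNG3 and KCNH5 are among the 12 but had a mean under the filter (4.95) in the class where they were low, and passed only through the other class. With no filter, 13 of all 106 members (12.3%) did not overlap, against 2.6% of all probe sets. Within a single set or treatment fewer arrays are compared and more of all probe sets separate. There, 36 members (51.4%) did not overlap within piece 1, against 39% of all, and 45 (64.3%) within piece 2, against 35.4%. Within the mock arrays it was 32 (45.7%, against 27.3%), and within the BV arrays 28 (40%, against 16.3%).

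The differences were larger than those of most probe sets and ran in both directions. The median of the absolute class difference was 0.60 log2 units over the tested members and 0.25 over all probe sets. The signed median was -0.20 against -0.01, and 23 members were above 0 and 47 below. The counts by direction rest on the normalization of the arrays. With no normalization, the median class difference of all probe sets moved to -0.53. There, 1 member did not overlap on the higher side and 13 on the lower. That is 7.14% higher, against 14.9% of all probe sets without overlap. Quantile normalization gave 50% higher, against 65.7% of all those without overlap. With median centring the median of all was 0.06, with 8 members higher and 5 lower (61.5% higher, against 65.3% of all without overlap). Markers of neurons in general were lower in the striatum-rich pieces (5 of 9 tested, mean log2 9.34 to 9.94 against 9.86 to 10.7). The ranges met only through BV 5, at 9.86. Astrocyte markers (4 of 6 tested) covered 9.80 to 10.4 and 9.81 to 10.1, and oligodendrocyte markers (2 of 6) reached 12.3 in both classes. The part of cell makeup in the class differences was not tested.

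**Figure D2:**
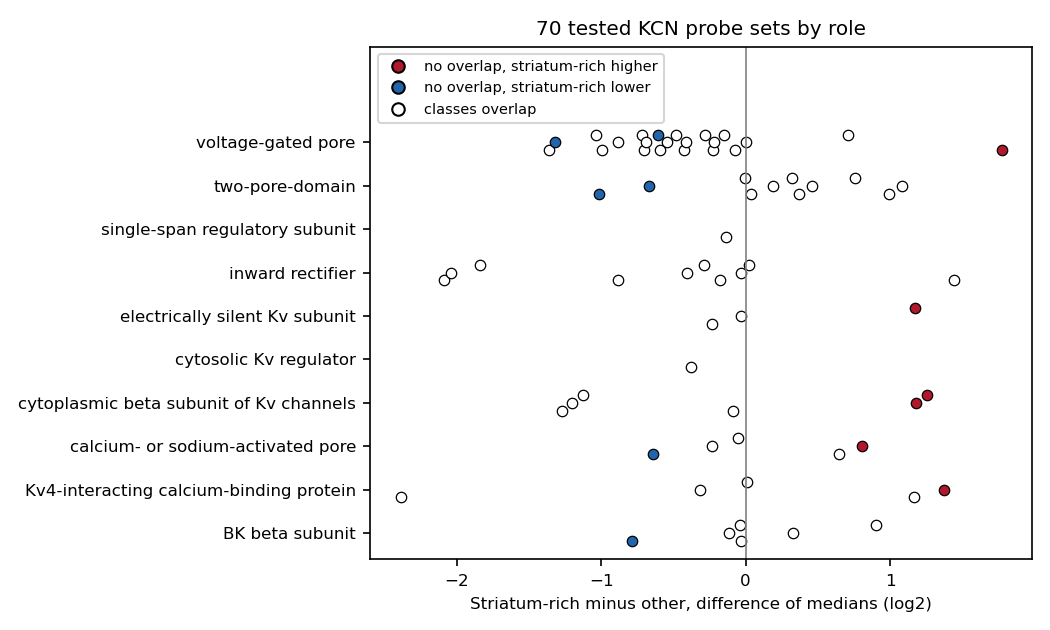
Difference of medians, striatum-rich minus other pieces, in log2 units (x axis) for each of the 70 tested KCN probe sets, grouped by the role of the encoded protein (y axis). Filled points mark the 12 probe sets whose values did not overlap between the classes. The points run from -2.39 (KCNIP4) to 1.77 (KCNH3), and the voltage-gated pores and inward rectifiers lie mostly below 0.

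Among the voltage-gated pores, 22 tested probe sets of 17 genes, KCNH3 had the highest class difference. KCNH3 encodes a channel of the ether-a-go-go-like group found mainly in forebrain neurons. Its log2 signal had a lowest value of 7.47, a median of 7.94 and a highest of 8.45 in the striatum-rich pieces. The other pieces had 6.01, 6.17 and 6.66, so the classes were clearly apart. The difference of medians was 1.77, or 3.42-fold on the log2(signal + 3.49) scale. It was 1.99 within piece 1 and 1.56 within piece 2. Each of these rests on 1 array of its class in the set and carries no spread.

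KCNH5, a related ether-a-go-go pore, ran the opposite way, and passed the filter only through the other pieces. It had a lowest value of 4.28, a median of 5.04 and a highest of 5.34 in the striatum-rich pieces, and 5.48, 6.36 and 7.29 in the others. The class difference was -1.32, a level 2.49-fold higher in the other pieces, and -0.87 and -1.64 within piece 1 and piece 2. KCNA5, a delayed rectifier of the Shaker group, was also separated, at 4.68, 5.50 and 5.62 against 5.88, 6.11 and 6.34, a difference of -0.61.

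The fast-spiking channel gene KCNC1 and the delayed rectifier KCNB2 followed the classes in both sets with lower values in the striatum-rich pieces. Their class differences were -0.99 for KCNC1 and -0.88 for KCNB2. BV 5 is the array that made each of them overlap. KCNC1 was 6.07 in BV 5 and at least 7.03 in the other 5 arrays of its class, where the striatum-rich pieces reached 6.69. KCNB2 was 5.90 in BV 5 and at least 6.66 in those 5, where the striatum-rich pieces reached 6.53.

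Other voltage-gated pores differed less or with overlap. KCNQ3, an M-current subunit that damps repetitive firing, had 5.71, 6.16 and 6.48 against 5.98, 6.86 and 7.61. KCND2, which carries the fast A-type current of dendrites, had a class difference of -0.69, while KCND3 of the same group had 0.00. Of the Shaker-group genes, KCNA2 (-0.48), KCNA3 (-0.28) and KCNA1 (-0.23) were below 0, as was KCNA5, and KCNA4 was above it at 0.71. KCNA3 followed the classes downward on its brighter probe set, and its second probe set had -0.41 without following them. With no normalization KCNA4 was -0.08, where the median of all probe sets was -0.53, so its sign rests on the normalization. KCNH2, the cardiac and neuronal ERG channel, had -1.04 without following the classes in both sets.

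Regulators of Kv4 channels, the KCNIP genes, had 5 tested probe sets of 4 genes and were split. KCNIP2, a calcium-binding subunit that raises Kv4 current, had a lowest value of 9.17, a median of 9.52 and a highest of 10.43 in striatum-rich pieces. In the others it had 7.49, 8.15 and 8.74, a difference of 1.37 (2.59-fold). The second KCNIP2 probe set had a difference of 1.16 but overlapped, because mock 6 read 5.82 on it, equal to BV 2 at this precision. On the brighter probe set mock 6 was the highest of all 12 arrays at 10.43, so the probe sets of this gene disagree in the array with the highest actin ratio.

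KCNIP4 had the lowest class difference of all members. KCNIP4 encodes a Kv4 partner that slows the decay of the A-type current. The log2 signal was 8.96, 7.51, 8.28 and 5.73 in BV 1, 2, 3 and 5 and 8.34 and 7.74 in mock 1 and 3. In the striatum-rich pieces it was 5.91 and 5.80 in BV 4 and 6 and 5.59, 5.65, 4.26 and 4.34 in mock 2, 4, 5 and 6. The difference was -2.39, or 5.23-fold higher in the other pieces, with -4.02 within piece 1 and -1.86 within piece 2. BV 5 is the single value of the other pieces that fell inside the striatum-rich range. KCNIP1 (0.01) and KCNIP3 (-0.32) had small class differences and did not follow the classes.

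Cytoplasmic beta subunits, which bind Shaker-group channels and in some forms make them inactivate, split by gene. KCNAB1 had 10.45, 10.85 and 11.29 in the striatum-rich pieces and 8.09, 9.60 and 9.91 in the others. The difference was 1.25 (2.38-fold) on the brighter probe set and 1.18 on the second, and neither overlapped. KCNAB2 had -1.12 on its brightest probe set, with 8.49, 8.88 and 9.48 against 8.94, 10.00 and 10.41. A second KCNAB2 probe set gave -1.27 and the dimmest -0.08. KCNAB3 had 4.97, 5.15 and 5.59 against 5.18, 6.35 and 6.86, a difference of -1.20. Both KCNAB2 and KCNAB3 followed the classes in both sets on their brightest probe set, and BV 5 overlapped.

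Inward rectifiers, 10 tested probe sets of 8 genes, gave no probe set without overlap, and 1 followed the classes upward and 4 downward. KCNJ4, the Kir2.3 channel of striatal and cortical neurons, had 7.76, 8.25 and 9.13 in striatum-rich pieces and 5.65, 6.80 and 7.92 in the others. Its difference was 1.44 (2.72-fold), and BV 3 at 7.92 lay inside the striatum-rich range. KCNJ12, the related Kir2.2, ran the other way at 5.46, 6.12 and 6.68 against 6.24, 7.96 and 8.45. Its brighter probe set gave -1.84 and the second -2.04. KCNJ6, the Kir3.2 subunit of channels opened by G proteins, had 5.28, 5.90 and 6.28 against 6.10, 7.99 and 8.64. The difference was -2.09 (4.26-fold higher in the other pieces), with -2.65 within piece 1 and -1.93 within piece 2. KCNJ9, the partner subunit Kir3.3, had 5.04, 5.45 and 5.66 against 5.20, 6.33 and 6.76, a difference of -0.88.

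In KCNJ6, KCNJ9 and KCNJ12 the overlap came from BV 5 alone. BV 5 read 6.10 for KCNJ6, 5.20 for KCNJ9 and 6.24 for KCNJ12. The other 5 arrays of its class read at least 7.61, 6.25 and 7.88. KCNJ2, the Kir2.1 channel, followed the classes downward on its brighter probe set with a small difference (-0.40), and mock 6 at 7.47 was the lowest of 12 arrays.

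The tandem-pore-domain leak channels, 11 tested probe sets of 9 genes, were also split. KCNK3, an acid-sensitive TASK channel, had 6.86, 7.39 and 7.61 in striatum-rich pieces and 7.82, 8.40 and 8.57 in the others, a difference of -1.01. KCNK5, an alkaline-activated leak channel, had 7.35, 8.28 and 8.75 against 8.78, 8.95 and 9.06, a difference of -0.67 with classes that nearly touched. The dimmer KCNK5 probe set had 0.37 and overlapped. KCNK2, the stretch- and lipid-sensitive TREK channel, had 5.95, 6.24 and 6.60 against 5.05, 5.25 and 5.98. Its difference was 0.99, and BV 1 at 5.98 just passed the lowest striatum-rich piece. KCNK10, a related TREK channel, had medians of 7.05 and 5.97 with wide overlap and did not follow the classes. KCNK1 had 0.32 and turned to -0.37 with no normalization, where the median of all probe sets was -0.53.

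Pores opened by intracellular calcium or sodium had 5 tested genes. KCNN1 and KCNN2 are both small-conductance channels that produce the slow pause after a spike, and they were separated in opposite directions. KCNN1 had 6.37, 6.70 and 7.31 in the striatum-rich pieces and 5.34, 5.90 and 6.31 in the others, a difference of 0.80. KCNN2 had 5.20, 5.74 and 6.05 against 6.15, 6.38 and 6.81, a difference of -0.64. KCNN3 of the same group had -0.24, and KCNMA1, the pore of the large-conductance BK channel, had -0.05, both with overlap. The sodium-activated KCNT1 had 0.65, which became -0.19 with no normalization, where the median of all probe sets was -0.53.

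BK beta subunits tune the calcium sensitivity of the BK pore. KCNMB2, which makes it inactivate, had 5.64, 5.99 and 6.34 against 6.44, 6.78 and 6.95, a difference of -0.79 without overlap. KCNMB4, the neuronal subunit, had -0.04 on its brightest probe set. Electrically silent subunits, which work only together with other Kv pores, had 3 tested genes. KCNG3, which passed the filter only through the striatum-rich pieces, had 5.18, 6.04 and 7.20 against 4.60, 4.87 and 5.12, a difference of 1.17. KCNS2 followed the classes upward within each set although its overall difference was -0.23, and KCNK16 did so at -0.01.

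**Figure D3:**
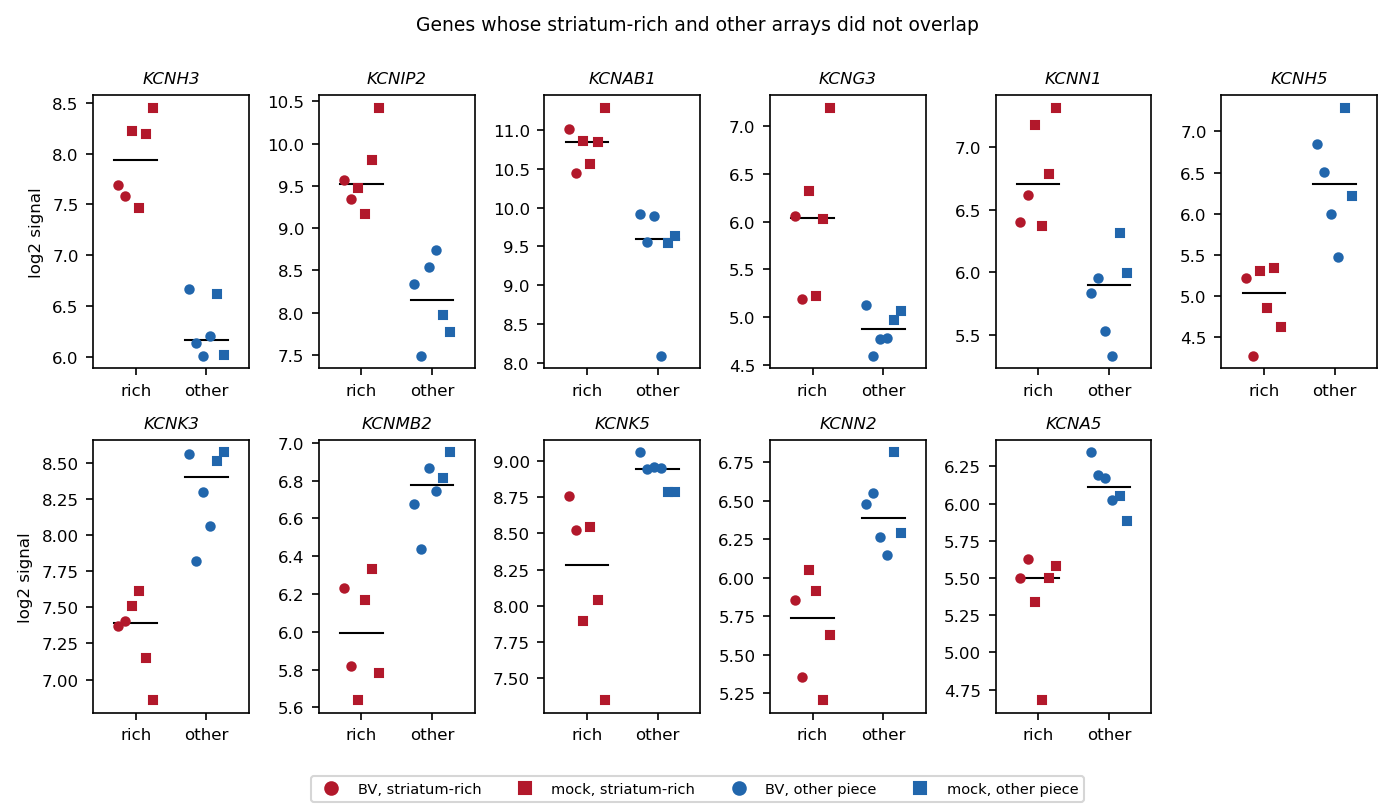
Log2 signal (y axis) of the 11 potassium channel genes whose piece classes did not overlap, 1 point per array, for 6 striatum-rich and 6 other pieces, with the class medians as lines. KCNH3 sits at 7.47 to 8.45 in striatum-rich pieces and at 6.01 to 6.66 in the others, while KCNH5 runs in the opposite direction.

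BV 5 bore on the lower side of the class comparison more than any other array left out. Without it, 23 members did not overlap (32.9%, against 8.16% of all), 6 higher and 17 lower (3.76% and 4.4% of all). The 11 probe sets gained belong to KCNAB2, KCNAB3, KCNB2, KCNC1, KCNIP4, KCNJ6, KCNJ9, KCNJ12 and KCNQ3. All of these are genes with lower values in striatum-rich pieces. The KCNIP4 difference became -2.65, that of KCNJ6 -2.16 and that of KCNAB2 -1.13. BV 5 was not low for every gene with lower values in striatum-rich pieces, since KCNK5 read 8.95 and KCNMB2 6.74 there, inside the range of its class. Among genes higher in striatum-rich pieces, KCNAB1 in BV 5 was 8.09, the lowest of all 12 arrays, whereas KCNIP2 at 8.74 was the highest of its class and KCNH3 was 6.20. Markers of neurons in general averaged 9.86 in BV 5, the lowest of the other pieces, and microglia and macrophage markers 9.29, the highest of them. Their part in these values was not tested.

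**Figure D4:**
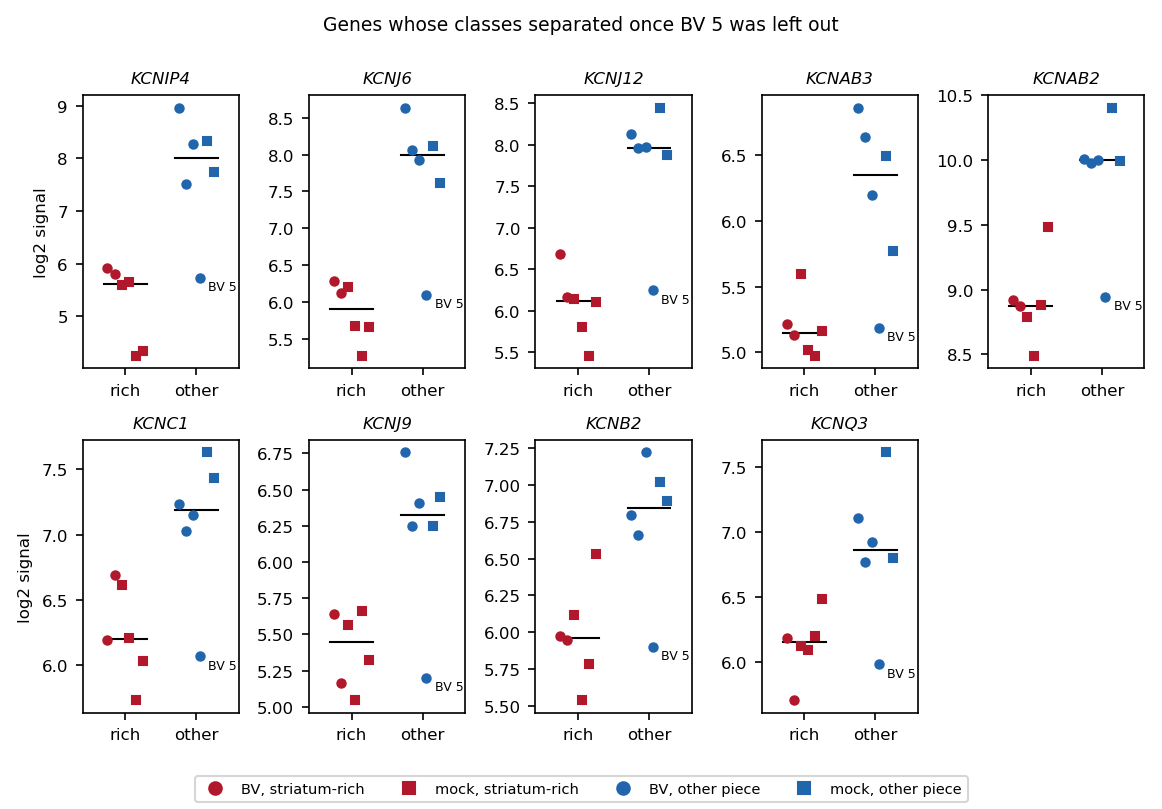
Log2 signal (y axis) of genes with lower values in striatum-rich pieces, for the 6 striatum-rich and 6 other arrays, with BV 5 labelled and class medians as lines. BV 5 reads 5.73 for KCNIP4 and 6.10 for KCNJ6, within or near the striatum-rich range, while the other 5 arrays of its class read at least 7.51 and 7.61.

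The injected virus was then compared with the mock preparation. No potassium channel gene passed the test. Pieces of a hemisphere were averaged and 3 BV values set against 3 mock values with animal as a block, in limma with Benjamini-Hochberg adjustment over all probe sets. Of 70 tested members 0 had an adjusted p under 0.05, against 9 of all 31660 (0.0284%). Adjusted p-values of the members ran from 0.454 to 1.00. At an unadjusted p under 0.05 there were 18 members (25.7%), 13 higher and 5 lower, against 8.8% of all (5.15% higher and 3.65% lower). With replicate number as a block in place of animal, 17 members (24.3%, against 14.4%) had an unadjusted p under 0.05 and again 0 an adjusted one. That block takes the pairs as independent, although each animal gave 2 of them, so its p-values may be too low. With animal as the block, the unadjusted count was 3 without animal 1, against 3.43% of all probe sets, and 28 without animal 2, against 20.1% of all. It was 11 without BV 3, against 12.4% of all, and 11 without mock 5, against 5.38%. With 3 animals and 2 residual degrees of freedom, a p that misses the threshold does not show equal levels.

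Interferon-stimulated genes, listed for comparison, were higher in all BV arrays. All 8 listed were tested, their mean log2 signal was 9.94 to 10.99 in BV and 7.94 to 8.62 in mock, and 4 of 8 passed the test. Over the potassium channel members the median BV minus mock difference was -0.02, the same as over all probe sets. It was above 0 for 35 and below 0 for 35 members, from -0.78 to 1.17. The median of the absolute differences was 0.30 against 0.18 for all probe sets.

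The pairs differed in their makeup, and its part in the BV minus mock differences was not tested. In pairs 1, 3, 4 and 6 both arrays belong to the same class, whereas in pairs 2 and 5 the BV piece is not striatum-rich and the mock piece is. Striatal markers had a median BV minus mock difference of -0.90 and thalamic markers of 0.86, and 0 of either list passed the test. Over the 4 matched pairs alone 7 members had an unadjusted p under 0.05 (10%, against 4.83% of all), 6 higher and 1 lower (2.59% and 2.24% of all). That fit takes the pairs as independent, although pairs 3 and 4 both come from animal 2, so its p-values may be too low. At an adjusted p under 0.05 there were 0 members and 0 of all probe sets. The lowest adjusted p of a member there was 0.854. Most genes below are therefore given with the value over matched pairs and the mean of pairs 2 and 5.

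KCNIP4 had the lowest unadjusted p of the members. Its pair differences, BV minus mock, were 0.63, 1.92, 0.53, 0.26, 1.48 and 1.46 for pairs 1 to 6. All 6 were above 0, and those of pairs 2 and 5 were among the 3 highest. The fitted difference was 1.05 ± 0.24 (SE, n = 3 animals; limma adjusted p = 0.454), or 2.07-fold. It was 0.72 over the matched pairs and 1.70 as the mean of pairs 2 and 5. KCNJ6 and KCNJ12, among the inward rectifiers with lower values in striatum-rich pieces, also had their highest difference in pair 2. KCNJ6 had 0.76 ± 0.19 (limma adjusted p = 0.499), with 0.48 over matched pairs and 1.34 in pairs 2 and 5. KCNJ12 had 0.55 ± 0.15 (limma adjusted p = 0.541), with 0.18 over matched pairs and 1.30 in pairs 2 and 5. Its pair differences were -0.32, 1.82, 0.09, 0.87, 0.79 and 0.06, so matched pair 4 was above unmatched pair 5. KCNJ9, also lower in striatum-rich pieces, had 0.68 in pair 2 but -0.46 in pair 5. Its fitted difference was 0.19 ± 0.21 (limma adjusted p = 0.723), with 0.23 over matched pairs and 0.11 in pairs 2 and 5.

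KCNQ1 and KCNMB4 differed from KCNIP4, KCNJ6 and KCNJ12 in that both unmatched pairs lay within the range of the matched ones. The KCNQ1 pairs of either kind spread widely. KCNQ1, a slow delayed rectifier pore, had pair differences of 1.03, 0.08, 1.65, -0.34, 1.41 and 0.55. Its fitted difference was 0.73 ± 0.17 (limma adjusted p = 0.473), with 0.72 over matched pairs and 0.75 in pairs 2 and 5. The differences were large in the 3 odd-numbered pairs, which are piece 1 arrays, and small or negative in pairs 2 and 4. KCNMB4 had 0.21, 0.41, 0.27, 0.46, 0.42 and 0.88 on its brightest probe set, with a fitted difference of 0.44 ± 0.12 (limma adjusted p = 0.523). Of 4 KCNMB4 probe sets, another gave -0.53 ± 0.14 (limma adjusted p = 0.524) and was lower in 6 of 6 pairs. The remaining ones gave -0.10 and 0.45, so no direction can be given for the gene.

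KCNK5 and KCNA5 were higher in BV in every pair on their brightest probe sets. KCNK5 had 0.27, 1.05, 0.17, 0.21, 0.91 and 1.17, with a fitted 0.63 ± 0.20 (limma adjusted p = 0.564). KCNA5 had 0.29, 0.86, 0.29, 0.82, 0.52 and 0.05, with 0.47 ± 0.16 at the same adjusted p. The second tested KCNK5 probe set was below 0 in pairs 3 and 4 (-0.53 and -0.36), with a fitted 0.30 ± 0.28 (limma adjusted p = 0.668). The other KCNA5 probe set was under the filter and was below 0 in pairs 1 and 6 (-0.14 and -0.03). On the brightest probe sets both genes had lower values in striatum-rich pieces. There, over matched pairs they had 0.46 and 0.36, and over pairs 2 and 5 0.98 and 0.69. Higher values in 6 of 6 pairs were found for 6 members (8.57%, against 3.37% of all) and lower ones for 2 (2.86%, against 4.37%).

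Of the 5 members with lower values at an unadjusted p under 0.05, those of KCNH3 and KCNN1 belong to genes separated upward in striatum-rich pieces, and those of KCNIP3, KCNK16 and KCNMB4 do not. KCNH3 had pair differences of 0.05, -2.09, -0.00, 0.22, -1.99 and -0.87. The matched pairs 1, 3 and 4 were near 0 and the unmatched pairs far below it. The fitted difference was -0.78 ± 0.30 (limma adjusted p = 0.564), against -0.15 over matched pairs and -2.04 in pairs 2 and 5. KCNAB1, KCNIP2 and KCNJ4 had -0.64, -0.43 and -0.73 in the fit but 0.06, 0.11 and 0.15 over matched pairs. In pairs 2 and 5 they averaged -2.03, -1.52 and -2.49. KCNN1 had -0.71 ± 0.20 (limma adjusted p = 0.564), -0.40 over matched pairs and -1.33 in pairs 2 and 5. KCNG3 had -0.72 ± 0.36 (limma adjusted p = 0.569), with pair differences from -2.01 in pair 6 to 0.83 in pair 4. It had -0.33 over matched pairs and -1.49 in pairs 2 and 5.

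KCNIP3 and KCNK16 also had lower values in BV, and KCNIP1 higher ones. KCNIP3, which as DREAM also binds DNA, had -0.01, -0.72, -0.42, -0.02, -0.59 and -1.24, lower in 6 of 6 pairs but by almost nothing in pairs 1 and 4. Its fitted difference was -0.50 ± 0.18 (limma adjusted p = 0.564), with -0.42 over matched pairs and -0.66 in pairs 2 and 5. KCNK16, a tandem-pore-domain gene known from pancreas, followed the classes within the array sets. It had -0.60 ± 0.20 at the same adjusted p, with pair differences from -1.64 in pair 2 to 0.34 in pair 3. KCNIP1 had 0.43 ± 0.17 (limma adjusted p = 0.564), and its 1.57 in pair 6 was far above its other pairs, the next being 0.47. It had 0.65 over matched pairs, which include pair 6, and 0.003 in pairs 2 and 5.

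**Figure D5:**
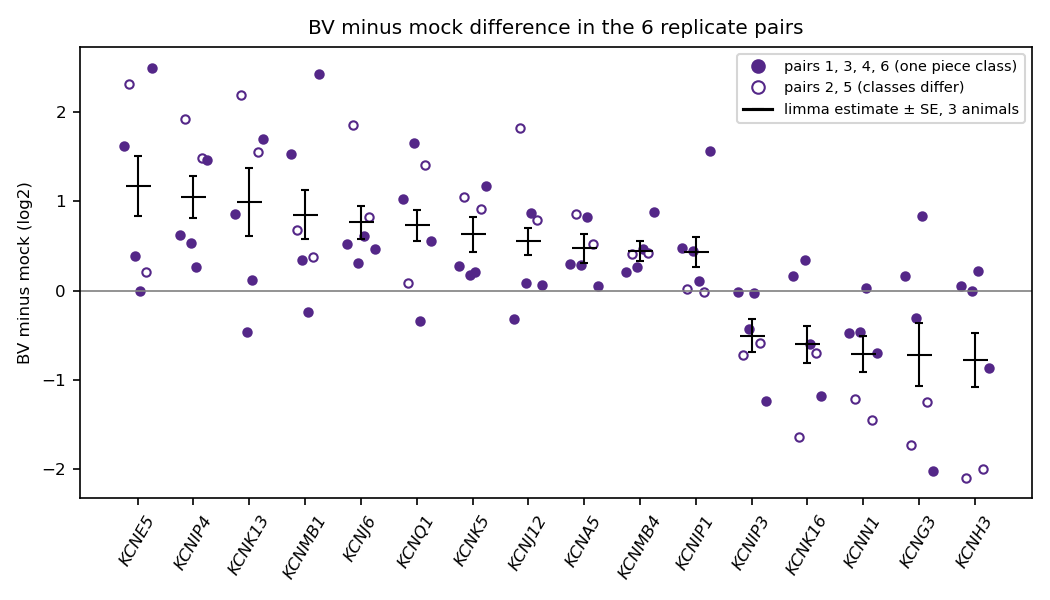
BV minus mock log2 difference (y axis) of named potassium channel genes in each of the 6 pairs, with filled points for the 4 class-matched pairs, open points for pairs 2 and 5, and the limma estimate ± SE (3 animals). For KCNH3 the unmatched pairs lie at -2.09 and -1.99 and matched pairs 1, 3 and 4 near 0, whereas the KCNMB4 points of both kinds lie together above 0.

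KCNE5, KCNMB1 and KCNK13, singled out after their values were seen, had some of the largest differences. KCNE5, a single-span subunit that damps Kv currents, had a lowest value of 8.33, a median of 8.45 and a highest of 10.05 in BV. In mock it had 6.16, 7.87 and 8.34, so the groups met only at BV 4 (8.33) and mock 4 (8.34). The fitted difference was 1.17 ± 0.33 (limma adjusted p = 0.564), or 2.25-fold, with 1.12 over matched pairs and 1.26 in pairs 2 and 5. Pair differences were 1.62, 2.31, 0.39, -0.01, 0.21 and 2.50, so the differences of pairs 3, 4 and 5 were small.

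KCNMB1, the BK subunit of smooth muscle, had 6.74, 8.70, 8.25, 8.92, 9.43 and 9.14 in BV 1 to 6. In mock 1 to 6 it had 5.21, 8.03, 7.91, 9.16, 9.05 and 6.72. The low arrays were mock 1, mock 6 and BV 1. Microglia and macrophage markers, 7 of 7 tested, were also lowest in mock 1 (7.36), mock 6 (7.91) and BV 1 (8.08), and reached 9.36 in mock 4. Endothelial and mural markers, 3 of 6 tested, were 7.16 in mock 1, 7.99 in mock 6 and 7.52 in BV 1, and reached 8.80 in BV 4. They were also low in BV 3 (7.77) and mock 3 (7.93), where KCNMB1 was 8.25 and 7.91 and not among its lowest. Their part in the KCNMB1 values was not tested. The fitted difference was 0.85 ± 0.27 (limma adjusted p = 0.564).

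KCNK13, a tandem-pore-domain leak channel of microglia, had 4.28, 5.82, 4.45, 5.98, 6.57 and 5.99 in BV 1 to 6 and 3.42, 3.64, 4.91, 5.86, 5.01 and 4.30 in mock 1 to 6. The microglia and macrophage markers had a mean log2 signal of 7.36 to 9.36 in mock and 8.08 to 9.29 in BV, and 0 of 7 passed the test. KCNK13 passed the filter only through the BV arrays, with a mean log2 signal of 5.51 in BV and 4.52 in mock. The groups overlapped, and the fitted difference was 0.99 ± 0.38 (limma adjusted p = 0.564). Pair 3 was below 0 at -0.46, and the value over matched pairs was 0.55.

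The animals were not alike. The median BV minus mock difference over the members was 0.03 in animal 1, 0.11 in animal 2 and -0.16 in animal 3, where all probe sets had -0.02, -0.00 and -0.02. In animal 2, both pairs are class-matched. For KCNH3 the animals had -1.02, 0.11 and -1.43. Without animal 2, which leaves 2 animals and 1 residual degree of freedom, 14 members passed the adjusted test, against 5.83% of all probe sets (1845). They include KCNIP4 (1.37, limma adjusted p = 0.00233), KCNJ4 (-1.41, 0.00289) and KCNH3 (-1.23, 0.00589). Both remaining animals have an unmatched pair. The BV effect did not differ between piece 1 and piece 2 pairs for any member at an adjusted p under 0.05 (0 of 70, and 0 of all). At an unadjusted p under 0.05 there were 2 members (2.86%, against 2.4% of all). This fit also takes the pairs as independent.

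Several probe sets were tested for 13 genes. The sign of the BV minus mock difference disagreed between probe sets in 6 of these, KCNAB2, KCNC4, KCNIP2, KCNJ2, KCNK1 and KCNMB4. The sign of the class difference disagreed in KCNK5 and KCNMB4. KCNJ2 had 0.49 ± 0.25 (limma adjusted p = 0.569) on the brighter and -0.29 on the other probe set, and the former was 0.25 without mock 6. Probe sets of a gene that read different transcript ends or bind related genes cannot be told apart here.

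Of 24 other genes listed as partners of potassium channels, 7 had a tested probe set, and 0 passed the test. DPP10, an auxiliary subunit of Kv4 channels, had 0.70 ± 0.19 (limma adjusted p = 0.552), higher in BV in 6 of 6 pairs, and it was the only partner at an unadjusted p under 0.05. Its class difference was -1.48, in the direction of KCNIP4, and it followed the classes in both sets. ATP1B1, the beta subunit of the sodium pump, followed them too, at -0.31 on its brightest probe set. Its other tested probe sets gave -0.61 without overlap, -0.80 following the classes, and 0.28 without following them. CNTNAP2, HCN3, LGI1, LRRC52 and the chloride exporter gene SLC12A5 did not follow the classes. The tested CNTNAP2 probe sets ran from -1.35 to 0.58. The median partner difference, BV minus mock, was -0.20.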

How the data were processed

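RNA of 12 tissue pieces was measured on a rhesus macaque array, so cynomolgus RNA may bind some probes less well. The authors deposited 1 linear intensity per probe set and array. GCOS 1.4.0.036 appears in the submitters' processing notes. How probes were summarised and scaled was not given in the sources used here. The arrays were quantile-normalized and taken as log2(signal + 3.49), the 10th percentile of the deposited intensities, so fold changes of dim probe sets are understated. The 99 controls were left out, and 31660 of 52766 probe sets with a mean log2 value of at least 4.95 (40th percentile) were tested. The number of arrays limits the precision.

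Pieces of a hemisphere were averaged and fitted in limma 3.58.1 (R 4.3.3) with animal as a block, eBayes with a trend, two-sided tests and Benjamini-Hochberg adjustment at 0.05. The block and the pairs rest on replicate numbers that were taken to mark shared animals. Deviations of same-numbered arrays from their group means correlated at 0.284 to 0.623 over probe sets. Those of an animal's hemispheres correlated at 0.156 to 0.622. In 5 of 6 pairs the BV array correlated best with its own number, and BV 6 did so with number 5. Same-numbered arrays also share the array set and, in 4 of 6 pairs, the piece class. Their correlation therefore cannot show by itself that they share an animal. No arrays held identical values.

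Symbols came from the platform annotation: 24969 probe sets had 1 symbol, 361 several and 27535 none. All 71 member symbols occur in a RefSeq gene table. A gene is represented by its brightest tested probe set. Named genes were the 5 higher and 5 lower genes of smallest p, those without class overlap that followed both array sets, the 5 brightest and a panel by role. KCNE5, KCNMB1, KCNK13, KCNAB3, KCNB2, KCNH2, KCNK10 and KCNA3 were named after their values were seen. Members, classes and lists were chosen with earlier results of these data known. Alternatives changed the normalization, pseudocount, filter and block and left out each array or animal. The model was tested on simulated data.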

Additional observations from a re-analysis of the deposited data

Results flagged for a closer look

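In 6 of 129 sets of 6 values looked at (the BV arrays, the mock arrays and the pairs of 43 genes), the highest or lowest value lay far from the others, where chance gives about 1 in 20. KCNE5 read 10.05 in BV 2, with 8.33 to 8.66 in the other BV arrays. KCNIP1 read 7.97 in BV 6, with 7.01 to 7.30 in the other BV arrays, and its BV minus mock difference was 1.57 in pair 6, with -0.01 to 0.47 in the other pairs. KCNJ2 read 7.47 in mock 6, with 8.90 to 9.69 in the other mock arrays. The KCNJ6 difference was 1.86 in pair 2, with 0.31 to 0.82 in the others. The KCNK10 difference was 0.85 in pair 6, with -0.17 to 0.19 in the others. Mock 6 is part of 3 of these 6 values, and its actin ratio was 2.40.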

How the results depend on the processing

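The count of all probe sets past the adjusted threshold, BV against mock, was 9. It was 1 with no normalization, 5 with no filter, 55 with the replicate block, 38 with the animal block and a piece term, 42 with duplicateCorrelation, 4 with no animal block, 1 with no trend, 14 with piece 1 alone, 0 with piece 2 alone and 0 with the 4 matched pairs. Leaving out an array or animal gave 0 (without mock 5) to 1845 (without animal 2). The count of potassium channel probe sets was 0 under all these alternatives except without animal 2, where it was 14. The replicate block changed no call of a member. The 18 members at an unadjusted p under 0.05 became 9 with no animal block, against 5.15% of all probe sets. They became 9 with piece 2 alone (against 5.52%) and 7 with the 4 matched pairs (against 4.83%). With an array or animal left out they were 3 (without animal 1, against 3.43%) to 28 (without animal 2, against 20.1%). Without BV 3 or mock 5 they were 11, against 12.4% and 5.38%. The 12 members without class overlap became 36, 45, 32 and 28 within the piece 1, piece 2, mock and BV arrays, where fewer arrays are compared (39%, 35.4%, 27.3% and 16.3% of all), and 12 to 23 (without BV 5) when an array was left out. The 30 that followed the classes became 20 with a filter at the 60th percentile, which tests fewer probe sets, and 30 to 36 when an array was left out. The median BV minus mock difference was -0.12 to 0.11 when an array or animal was left out. Causes were otherwise not tested. Without animal 2, 13 named genes passed the threshold. With 3 animals, no fitted difference of a member, from -0.78 to 1.17 log2 units, passed the threshold, and changes of this size may be missed.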
